A study of Homo sapiens with 10 samples.

Results

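The NRF2 regulators and core antioxidant targets are 10 genes, NFE2L1, NFE2L2, KEAP1, MAFG, BACH1, NQO1, HMOX1, SRXN1, OSGIN1 and ME1, taken by name from the 78894 gene IDs of the deposited table. All 10 members were found, each under a single Ensembl ID, and all 10 were among the 29045 genes tested. The cells were HEK293T, a standard line of human embryonic kidney origin, and their poly(A) RNA was sequenced after 24 h in each medium. The 10 libraries came from cysteine-free medium (0X, n = 2), complete medium (1X, n = 4) and medium with excess cysteine (10X, n = 4). All libraries came from the same unmodified line, and the samples carry no further treatment, allele or sorted fraction in their labels. The labels call the libraries biological replicates without naming separate thaws or passages. These group sizes are those of the labels, and they differ from the replicate number the study gives for its RNA-seq, which describes no excess medium.

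NRF2, the protein of NFE2L2, is a transcription factor that is held in the cytoplasm and marked for degradation by KEAP1, whose reactive cysteines sense oxidants and electrophiles. NRF2 that escapes KEAP1 pairs with a small MAF protein such as MAFG and binds antioxidant response elements beside genes for detoxification, thiol repair, haem breakdown and NADPH supply, while BACH1 pairs with the same MAF proteins and represses many of these genes until haem displaces it. NRF1, the protein of NFE2L1, is a related factor made in the endoplasmic reticulum membrane. Its best known targets are proteasome subunits. Because the NRF2 protein is controlled mainly by its stability, the mRNA of NFE2L2 is not a measure of its activity.

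Values are normalized counts, that is, the reads on a gene divided by a scaling factor of the library. Differences are in log2(normalized count + 1) with their standard error (SE). A gene is called where the limma adjusted p, Benjamini-Hochberg over all genes tested, is 0.01 or less.

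In excess medium all 10 members were called against complete medium, 9 higher and NFE2L2 lower, and their median difference was 0.95 on the log2 scale. The median over all genes tested was 0.01, and 46.0% of them were called, 23.1% higher and 22.9% lower. In cysteine-free medium 4 members were called, NFE2L1 and HMOX1 higher and MAFG and SRXN1 lower than in complete medium. There the background was 15.9%, with 7.39% higher and 8.51% lower. Between cysteine-free and excess medium all 10 were called, with NFE2L2 alone higher in cysteine-free medium. The background of that comparison was 48.0%, with 23.6% higher and 24.4% lower in cysteine-free medium. The 3 comparisons share libraries, so their counts are not independent of each other. The complete and cysteine-free libraries overlapped for NFE2L2 and not for the other 9 members. With groups of 4 and 2 libraries, 46.9% of all genes tested did not overlap, and only 4 of these 9 were called. In bulk libraries such as these, fewer cells of a type and less RNA per cell cannot be told apart.

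**Figure D1:**
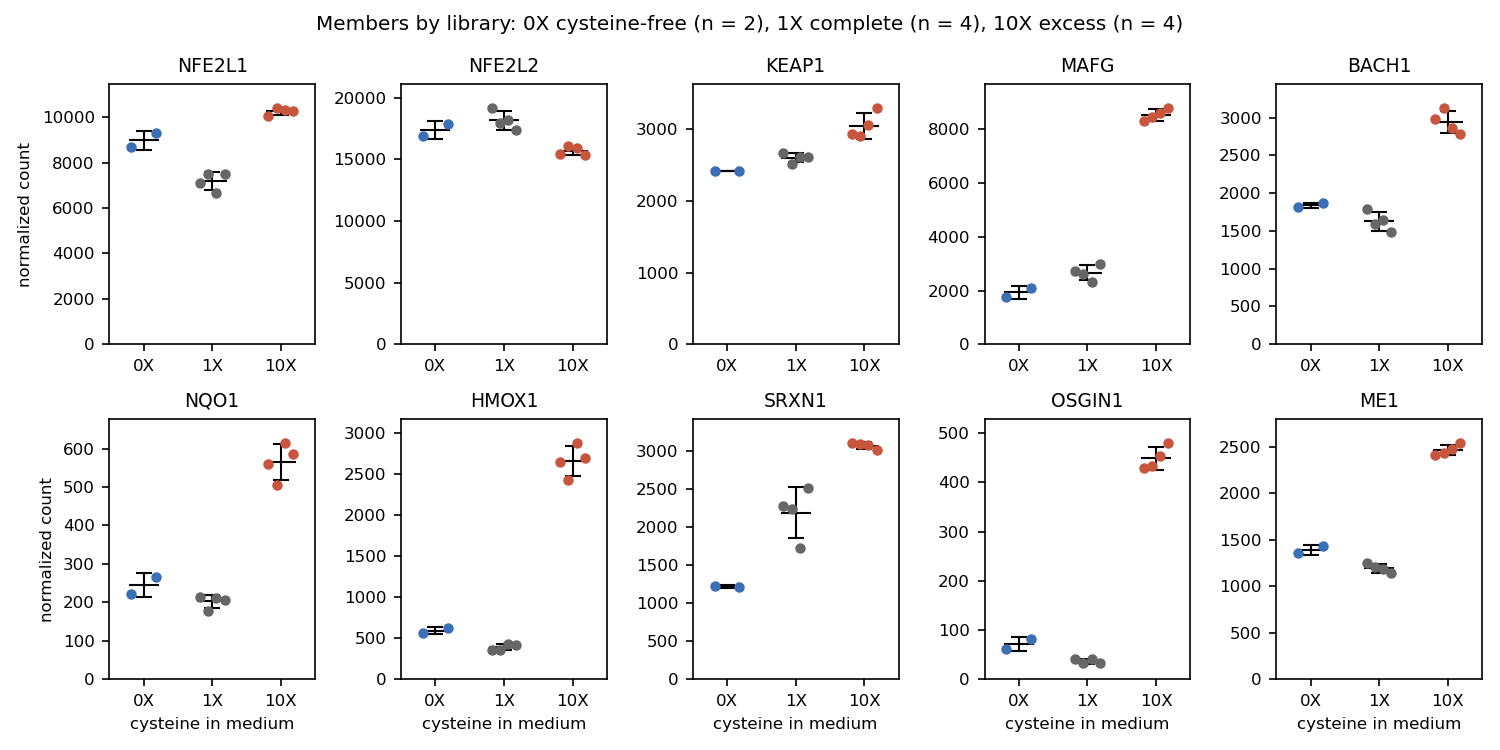
Normalized count (linear axis from 0) of each of the 10 members in every library, by cysteine in the medium. Points are libraries, and the horizontal mark and bars are the group mean ± SD (n = 2, 4 and 4). HMOX1, OSGIN1, MAFG, NQO1, ME1 and BACH1 stand clear of both other groups in 10X, MAFG and SRXN1 are lowest in 0X, and NFE2L2 spans 15371 to 19146.

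Each library held between 34836014 and 61654861 recovered reads on genes. The number of libraries, above all the 2 cysteine-free ones, limits the precision, and the values of OSGIN1 and NQO1 rest on the fewest reads (26 to 667 and 144 to 871). Mitochondrial genes held 0.117% to 0.146% of the reads in the 4 excess libraries and 4.51% to 5.71% in the other 6, so the excess libraries stand apart beyond the members. With totals made equal over nuclear genes alone, all 10 members were still called in excess against complete medium in the same directions. Of the HEK293 markers, VIM (25564 to 36308) and NEFM (12200.1 to 15838) were high in every library and SOX11 lay between 0 and 2.1. The summed HEK293 list was 54168 to 61457 in complete, 57793 to 58098 in cysteine-free and 63101 to 66550 in excess libraries. Of its 7 tested genes, PAX2 rose 2.40-fold without cysteine (limma adjusted p = 5.06e-04) while LIN28B and NEFM fell to 0.719 and 0.818, and in excess INA and VIM rose 1.57-fold and 1.24-fold while NEFL fell to 0.784. The part of these shifts in the members' values was not tested. CD3E and HBB, markers of T cells and red cells, were at 0 throughout, although COL1A1 of the fibroblast list reached 605 to 1002.

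Among the transcription factors, NFE2L1 lies at chr17:48048329-48061545 (GRCh38, plus strand). It measured 7097, 7489.8, 6672 and 7484 in the complete libraries, 8675 and 9283 in the cysteine-free and 10054, 10401, 10326 and 10272 in the excess libraries. Both altered media thus gave higher values than complete medium, with no overlap between any 2 groups. The differences from complete medium were 0.32 (SE 0.059, limma adjusted p = 0.00128) without cysteine and 0.52 (SE 0.041, limma adjusted p = 1.25e-08) in excess. Excess exceeded cysteine-free medium too, since cysteine-free minus excess was -0.19 (SE 0.038, limma adjusted p = 1.07e-04). The rise without cysteine was no longer called when either cysteine-free library was left out, with log2 differences from 0.27 to 0.37 over the libraries left out in turn. An lncRNA on the other strand, ENSG00000266341, lies wholly within 192 exon bases of NFE2L1 and held 8.06% of its value in complete, 8.93% in cysteine-free and 8.14% in excess medium.

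NFE2L2 (chr2:177218667-177392756, minus strand) showed the narrowest range of the members relative to its level, the highest library being 1.25 times the lowest. Its normalized counts were 19146, 17932, 18178 and 17337 in complete, 16869 and 17873 in cysteine-free and 15435, 16052, 15897 and 15371 in excess medium. The excess libraries lay below all others, while cysteine-free and complete libraries overlapped. Excess minus complete was -0.21 (SE 0.036, limma adjusted p = 1.02e-04), and cysteine-free minus complete was -0.06 (SE 0.051, limma adjusted p = 0.395). At equal library totals, which add 0.11 to every gene's difference of excess from complete medium, the fall in excess was -0.10 (limma adjusted p = 0.00519), and under quantile normalization it was -0.12 (limma adjusted p = 0.00219). Cysteine-free minus excess was 0.15 (SE 0.036, limma adjusted p = 0.00119), a call that was lost at equal totals and under quantile normalization, among other settings.

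These NFE2L2 values are uncertain, because 38.4% of the annotated exon bases of NFE2L2 (5747 of 14975) also belong to other genes. Of these bases, 3509 lie in HNRNPA3, an abundant gene for an RNA-binding protein on the opposite strand. Another 2037 lie in ENSG00000213963, an lncRNA on the same strand. That lncRNA averaged 310 in complete, 595 in cysteine-free and 436 in excess medium. HNRNPA3 measured 29555 to 32413 in complete, 28471 and 29007 in cysteine-free and 22559.7 to 23528 in excess medium, so it was lower in excess too. HNRNPA3 was 171% ± 0.914 of NFE2L2 in complete (SD, n = 4), 166% ± 4.59 in cysteine-free (SD, n = 2) and 147% ± 0.846 in excess medium (SD, n = 4). This ratio, examined after the values were seen, did not overlap between excess and complete medium (exact two-sided permutation p = 0.0286, adjusted over 3 comparisons 0.0858). With 2 cysteine-free libraries the exact two-sided permutation p was 0.133 against either group. Both p-values are the smallest these group sizes allow.

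The methods of the study state that reads over several genes were left out, and the library kit keeps the strand. By that account no read would count for both genes of a pair. The values show otherwise for a same-strand pair, since SRXN1 and the readthrough gene over it hold 2169 and 2089 reads in complete replicate 1. ENSG00000266341, wholly inside exons of NFE2L1 on the other strand, holds 463 to 1291 reads. Those could be its own if counting kept the strand, which is not known. For SRXN1 the same reads thus appear to count for both genes. Some other pairs did not show this. LINC00189 shares 302 exon bases with BACH1 on the same strand and held 0 to 3 reads. NFE2L3, opposite HNRNPA2B1 with 1207 shared exon bases, averaged 780 in complete medium, against a mean of 50664 for HNRNPA2B1 over all libraries. High values of both genes stood in some opposite-strand pairs. BEST1, opposite FTH1 with 1267 shared exon bases, averaged 20609 over all libraries, and FTH1 averaged 19744 in complete medium. VIM-AS1, opposite VIM with 656 shared exon bases, averaged 10582 over all libraries. Whether such values hold reads of the other gene was not tested. Whether reads count for both genes of an opposite-strand pair is therefore not known. If the HNRNPA3 reads were spread evenly along its exons and counted for both genes, 16603 of the mean NFE2L2 value of 18148 would lie in the shared bases in complete medium. The remainder would then be 1468 to 1758 in complete, 1595 and 2312 in cysteine-free and 3188 to 3455 in excess medium. Its order is the opposite of that of the deposited NFE2L2 values. The even spread of the reads and their counting for both genes are assumptions not tested here. The direction of NFE2L2 mRNA in excess medium is thus not settled by the table.

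**Figure D2:**
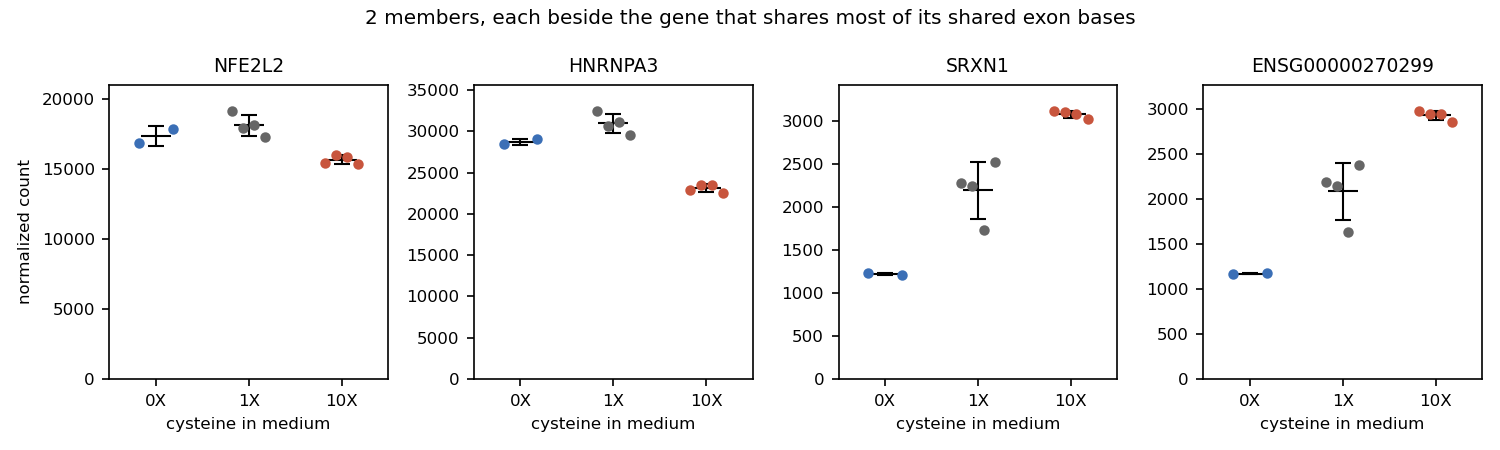
Normalized count (linear axis from 0) of NFE2L2, HNRNPA3, SRXN1 and ENSG00000270299 by library and cysteine in the medium, with points for libraries and marks for group mean ± SD (n = 2, 4 and 4). NFE2L2 and HNRNPA3 are both lowest in 10X, and ENSG00000270299 follows SRXN1 at a mean of 95.4% to 96.2% of its value in each group.

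KEAP1 (chr19:10486125-10503558, minus strand), the adaptor that brings NRF2 to a CUL3 ubiquitin ligase, shares no exon base with another gene. Its values were 2670.0, 2516, 2614 and 2615 in complete, 2424 and 2420.0 in cysteine-free and 2937, 2904, 3057 and 3297 in excess medium. The 3 groups did not overlap, with cysteine-free lowest and excess highest. The increase in excess was small (0.23, SE 0.048, limma adjusted p = 6.77e-04, 1.17-fold). The difference of -0.10 (SE 0.059, limma adjusted p = 0.209) without cysteine did not pass the test. Cysteine-free minus excess was -0.33 (SE 0.051, limma adjusted p = 4.90e-06).

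MAFG (chr17:81918270-81927735, minus strand) had the largest rise among the regulators. It measured 2741, 2619, 2300.5 and 2979 in complete, 1753 and 2106 in cysteine-free and 8301, 8449.6, 8598 and 8789 in excess medium. Levels therefore followed the cysteine in the medium, with no overlap between neighbouring groups. The rise in excess was 1.69 (SE 0.060, limma adjusted p = 6.34e-13), or 3.22-fold, a difference larger than that of 97.5% of the genes tested. MAFG fell by 0.46 (SE 0.096, limma adjusted p = 0.00295) without cysteine. That fall was no longer called when either cysteine-free library, complete replicate 1 or complete replicate 2 was left out, and over all libraries left out in turn the difference reached -0.33 at its smallest. The cysteine-free libraries differed from the excess ones by -2.15 (SE 0.052, limma adjusted p = 8.28e-21). MAFG shares 329 exon bases with SIRT7 and an lncRNA. SIRT7 averaged 1224 in complete, 943 in cysteine-free and 1526 in excess medium.

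BACH1 (chr21:29194071-29630751, plus strand), the haem-sensing repressor, also rose in excess. It measured 1789, 1589, 1643 and 1485 in complete, 1819 and 1867 in cysteine-free and 2989, 3127, 2870.1 and 2784 in excess medium. The excess libraries stood far above the rest, and the cysteine-free libraries just above the highest complete library. The difference was 0.86 (SE 0.058, limma adjusted p = 1.78e-09, 1.81-fold) in excess and 0.18 (SE 0.077, limma adjusted p = 0.0952) without cysteine, the latter not called. The cysteine-free minus excess difference was -0.67 (SE 0.051, limma adjusted p = 3.26e-11). Excess medium thus had higher mRNA of the activators' MAF partner, of the inhibitor KEAP1 and of the repressor BACH1 together.

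Among the targets, HMOX1 (chr22:35380361-35394214, plus strand) encodes haem oxygenase 1, which opens haem to biliverdin, iron and carbon monoxide. It measured 357, 352, 430.4 and 417 in complete, 560.4 and 623 in cysteine-free and 2649, 2433, 2880.4 and 2695 in excess medium. Each group stood apart from the others, with complete lowest. The rise in excess was 2.78 (SE 0.075, limma adjusted p = 1.79e-14), or 6.85-fold, and 145 genes tested had a larger one. Without cysteine the rise was 0.61 (SE 0.114, limma adjusted p = 0.00155), or 1.52-fold, and it was not called when either cysteine-free library was left out. From excess to cysteine-free medium the difference was -2.17 (SE 0.063, limma adjusted p = 2.84e-19).

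OSGIN1 (chr16:83931311-83966332, plus strand), named as an oxidative stress induced growth inhibitor, had the largest relative change of the members in excess. Its values were 41.0, 32.1, 40.6 and 31.8 in complete, 61.5 and 80.7 in cysteine-free and 428, 432, 453 and 480.1 in excess medium. It was therefore barely expressed in complete medium and rose 12.1-fold in excess (3.60, SE 0.127, limma adjusted p = 5.34e-13), and 45 genes tested had a larger rise. Both cysteine-free libraries lay above all complete libraries, but the difference of 0.95 (SE 0.263, limma adjusted p = 0.0162) was not called. It was called when the 3 groups were fitted together and by edgeR on the recovered reads, and the adjusted p over all alternatives ranged from 2.60e-04 to 0.198. Between cysteine-free and excess medium the difference was -2.65 (SE 0.117, limma adjusted p = 1.29e-15). Of its exon bases 457 also belong to MLYCD, on the same strand. MLYCD averaged 446 in complete, 530.3 in cysteine-free and 417 in excess medium and so had no rise in excess. If MLYCD reads spread evenly and counted for both genes, 12.1 of the mean OSGIN1 value of 36.4 in complete medium would be shared. The like shares were 14.4 of 71.1 in cysteine-free and 11.3 of 448 in excess medium. That counting was not tested, so the OSGIN1 differences from complete medium are uncertain to this extent.

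NQO1 (chr16:69706996-69726668, minus strand), a quinone reductase widely read as a marker of NRF2 activity, measured 213, 178, 211 and 206 in complete, 222 and 266 in cysteine-free and 559, 504, 614 and 585 in excess medium. The excess libraries were all above the rest. The rise in excess was 1.48 (SE 0.090, limma adjusted p = 4.62e-10), or 2.79-fold. Without cysteine the difference was 0.27 (SE 0.140, limma adjusted p = 0.178), which did not pass the test although both libraries lay above the complete ones, and it was 0.14 without cysteine-free replicate 2 and 0.40 without replicate 1. Against excess medium the cysteine-free difference was -1.21 (SE 0.095, limma adjusted p = 6.75e-11). The antisense lncRNA ENSG00000261602 lies within 575 exon bases of NQO1 and averaged 19.7 in complete, 15.6 in cysteine-free and 61.9 in excess medium, a small part of the NQO1 value in each.

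ME1 (chr6:83210402-83431051, minus strand), the cytosolic malic enzyme that makes NADPH, measured 1254, 1203, 1184 and 1137 in complete, 1354 and 1429 in cysteine-free and 2415, 2432, 2475 and 2542 in excess medium. The 3 groups did not overlap and the spread within each was small. The rise in excess was 1.05 (SE 0.049, limma adjusted p = 1.76e-11), or 2.06-fold. The difference of 0.22 (SE 0.072, limma adjusted p = 0.0367) without cysteine was not called, but it passed in the fit of all 3 groups and at an adjusted p of 0.05. Cysteine-free minus excess was -0.83 (SE 0.050, limma adjusted p = 5.16e-13). ME1, like HMOX1 and KEAP1, shares no exon base with another gene.

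SRXN1 (chr20:646615-653200, minus strand), the sulfiredoxin that repairs overoxidized peroxiredoxins, was the target with the opposite response to cysteine-free medium. It measured 2278, 2243, 1725 and 2514 in complete, 1229 and 1209 in cysteine-free and 3108, 3096, 3075 and 3018 in excess medium. Its levels followed the cysteine in the medium as those of MAFG did, and complete replicate 3 was the lowest complete library for both genes. SRXN1 fell by 0.83 without cysteine (SE 0.113, limma adjusted p = 1.45e-04) to 0.562 of its level in complete medium, and it rose by 0.50 in excess (SE 0.081, limma adjusted p = 5.00e-05). Without cysteine-free replicate 2 the fall was not called, although leaving out any one library kept it at -0.76 or further from 0. Cysteine-free minus excess was -1.33 (SE 0.047, limma adjusted p = 1.56e-17). The annotation gives a readthrough gene, ENSG00000270299, that covers 2292 of the 2528 exon bases of SRXN1 on the same strand. Its value was 95.4% of SRXN1 in complete, 96.2% in cysteine-free and 95.4% in excess medium, so transcripts of the pair cannot be told apart here.

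**Figure D3:**
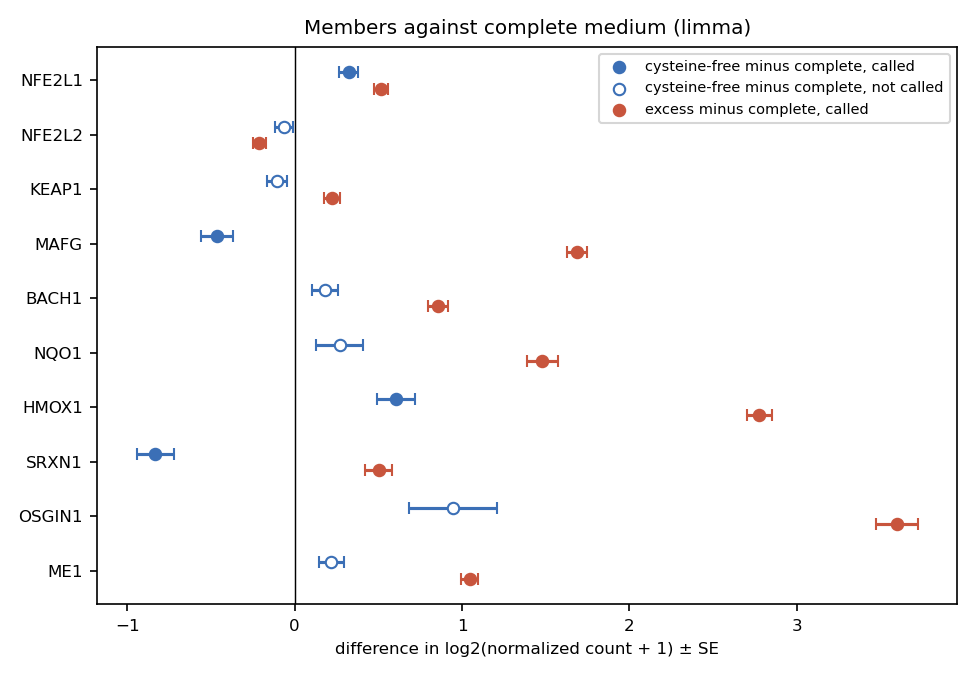
Difference in log2(normalized count + 1) from complete medium for the 10 members, cysteine-free in blue and excess in red. Points are limma estimates with bars of ± SE, filled where called and open where not; the excess differences run from -0.21 (NFE2L2) to 3.60 (OSGIN1), and the cysteine-free ones from -0.83 (SRXN1) to 0.95 (OSGIN1).

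A pair of orders therefore stood among the members whose cysteine-free difference was called. MAFG and SRXN1 were lowest without cysteine and highest in excess. NFE2L1 and HMOX1 were lowest in complete medium and higher in both altered media. Across the 10 libraries NQO1, HMOX1, OSGIN1, ME1 and BACH1 followed each other, with Pearson r of the log2 values between 0.969 and 0.997, whereas SRXN1 had r between 0.600 and 0.649 with these 5 genes and 0.871 with MAFG. These correlations describe 10 libraries in 3 groups and mostly carry the group differences. Of deviations from the group means, r over the 45 pairs of members ranged from -0.522 (SRXN1 and OSGIN1) to 0.842 (NFE2L2 and BACH1). Among the 5 genes that followed each other it ranged from -0.488 (BACH1 and HMOX1) to 0.742 (OSGIN1 and ME1), so they did not all vary together within groups.

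Levels between genes were compared per kilobase of annotated exon. In complete medium NFE2L1 (1221 ± 66.1, SD, n = 4) and NFE2L2 (1212 ± 50.3) were highest and did not differ beyond their spread. SRXN1 (866), KEAP1 (729), MAFG (508), ME1 (358), BACH1 (212), HMOX1 (169), NQO1 (68.0) and OSGIN1 (6.55) followed in this order. In excess medium MAFG (1628 ± 39.8, SD, n = 4) stood next to NFE2L1 (1745 ± 25.4), and HMOX1 (1155 ± 79.8) came level with SRXN1 (1216 ± 15.8) within its spread. OSGIN1 stayed lowest at 80.7 ± 4.27 per kilobase. The NFE2L2 and SRXN1 levels are uncertain for the shared exon bases described above.

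The start sites of the members were searched for the antioxidant response element because that is the sequence NRF2 and BACH1 compete for, and 9 of the 10 members had entries in the RefSeq promoter table (GRCh38.p14), 14 start sites in all. HMOX1 was not among them. The letters searched on both strands were TGACNNNGC, the core of the element, TGACTCAGC, a strict form of it, TGANTCA, the AP-1 motif, which the strict form contains, and TGATGNAA, an element bound by ATF4. In 1000 bases before to 50 after each start, 5 of the 9 members held the core, against 33.7% of all 35116 start sites, and ME1 and NQO1 held the strict form, against 1.53% of all start sites. Some members have several start sites and so more chances of a match. The other 3 members with the core were KEAP1, BACH1 and OSGIN1. The AP-1 letters stood in 5 of the 9, against 23.5% of all start sites, and TGATGNAA in 0 of the 9, against 13.4%.

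The following runs, read from GRCh38 along the strand of the gene, show the core matches of 3 induced targets in capitals with 16 bases on each side, the NQO1 match 455 bases before the start (run at chr16:69726991-69727031), the ME1 match 137 before (chr6:83431164-83431204) and the OSGIN1 match 557 before (chr16:83952667-83952707).
NQO1: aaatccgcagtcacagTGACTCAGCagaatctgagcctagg
ME1: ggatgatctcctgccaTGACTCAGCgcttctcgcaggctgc
OSGIN1: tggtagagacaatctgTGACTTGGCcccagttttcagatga
NQO1 and ME1 carry the same strict letters, and OSGIN1 differs from them within the variable bases of the core.

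The whole ME1 promoter of 300 bases (chr6:83431002-83431301, minus strand) is shown because it was the only member promoter of this length with the strict form. Capitals mark the strict form and a second core match on the other strand.
ME1: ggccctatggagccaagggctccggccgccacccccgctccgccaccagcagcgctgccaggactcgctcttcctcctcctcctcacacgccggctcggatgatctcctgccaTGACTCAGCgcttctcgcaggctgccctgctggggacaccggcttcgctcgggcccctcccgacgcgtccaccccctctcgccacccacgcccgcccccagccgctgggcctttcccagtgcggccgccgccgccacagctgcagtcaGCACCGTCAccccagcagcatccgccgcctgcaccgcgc
The OSGIN1 promoter of 300 bases (chr16:83952990-83953289, plus strand) is shown because OSGIN1 had the largest change, and its capitals mark AP-1 letters 97 bases before the start.
OSGIN1: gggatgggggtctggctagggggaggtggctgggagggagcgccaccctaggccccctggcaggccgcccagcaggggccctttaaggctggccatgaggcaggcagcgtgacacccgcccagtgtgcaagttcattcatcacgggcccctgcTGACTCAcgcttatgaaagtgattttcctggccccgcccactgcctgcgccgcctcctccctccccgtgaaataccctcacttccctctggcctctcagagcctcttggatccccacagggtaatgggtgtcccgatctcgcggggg
In windows of this length 13.3% of all start sites held the core, 0.561% the strict form and 7.71% the AP-1 letters. A match of letters is a description and shows no binding in these cells, and members without a match, such as MAFG and SRXN1 for the core, lack the letters only within the window searched.

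Of the 12 paralogs, all tested, 4 were called higher and 3 lower in excess medium (median 0.08), and none higher and 3 lower in cysteine-free medium (median -0.25). MAFK, another small MAF, averaged 519 in cysteine-free, 954 in complete and 1067 in excess medium, and fell by 0.87 without cysteine (SE 0.092, limma adjusted p = 2.03e-05) without a call in excess (limma adjusted p = 0.0503). MAFF, the third small MAF, rose 2.12-fold in excess (1.08, limma adjusted p = 4.43e-06). BACH2, the repressor best known in B cells, rose 1.94-fold in excess (0.96, limma adjusted p = 5.31e-09), close to the 1.81-fold of BACH1. HMOX2, the constitutive haem oxygenase, went the other way from HMOX1. It averaged 1228 in cysteine-free, 1789 in complete and 986 in excess medium, a fall of 0.54 (limma adjusted p = 1.07e-04) and of 0.86 (limma adjusted p = 7.95e-10). NFE2L3 and ME2 also fell in excess, to 0.755 and 0.856 of complete medium, and OSGIN2 and ME3 rose, ME3 from a mean of only 6.66. NQO2, KLHL9, KLHL12 and NFE2 were not called in either comparison with complete medium, and ME2 was the third paralog to fall without cysteine (-0.39, limma adjusted p = 7.77e-04).

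Genes that act on the stability of NRF2 or the processing of NRF1 were split. Of 14 such genes, all tested, 5 were called higher and 5 lower in excess (median -0.01). SQSTM1, a cargo receptor for autophagy that binds KEAP1, rose 2.14-fold in excess (limma adjusted p = 4.69e-13) and was at 0.892 of complete medium without cysteine, which was not called (limma adjusted p = 0.036). It shares 22.4% of its exon bases with MGAT4B and MRNIP. The other 9 called in excess are named because they were few, after their values were seen. SEL1L and SYVN1, which act together in degradation from the endoplasmic reticulum, TRIM16 and GSK3B rose by 1.94-fold, 1.27-fold, 1.37-fold and 1.13-fold. VCP, the ATPase that extracts NRF1 from the membrane, and DDI2, the protease that cuts it, fell to 0.737 and 0.788 of complete medium. RBX1, PGAM5 and DPP3 fell to 0.636, 0.660 and 0.640. Without cysteine 1 of the 14 rose, PALB2, and 3 fell, VCP, DDI2 and PGAM5 (median -0.16), likewise named after their values were seen.

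Other NRF2 targets did not share one direction. Of 34 listed, 28 were tested, and in excess 11 were called higher and 11 lower, with a median of -0.05. In cysteine-free medium 2 were higher and 4 lower, with a median of -0.08. The largest rises in excess were those of AKR1B10 (2.82, limma adjusted p = 3.86e-07, from a mean of 13.4 to 98.1) and SLC7A11 (1.88, limma adjusted p = 4.73e-14). SLC7A11, the cystine importer, was at 4700.4 in complete, 10223 in cysteine-free and 17242 in excess medium, so it too was lowest in complete medium, and it rose 2.18-fold without cysteine (limma adjusted p = 2.88e-07). TXNRD1, thioredoxin reductase, rose 3.25-fold in excess (limma adjusted p = 9.05e-15) and GCLM, the modifier subunit of glutathione synthesis, 3.16-fold (limma adjusted p = 1.10e-13). Named after their values were seen, TXN and PRDX1 fell in excess to 0.522 and 0.601 of complete medium (limma adjusted p = 4.75e-12 and 6.64e-11). Also named after their values were seen, FTH1, ferritin heavy chain, was the other target called higher without cysteine (1.35-fold, limma adjusted p = 9.67e-05), and PRDX1, CBR1, GSR and TKT were the 4 called lower.

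Genes of haem and bilirubin handling stood beside HMOX1. Of 12 listed, 11 were tested, and in excess 2 were called higher and 8 lower, with a median of -0.42. The 2 were ALAS1, the first enzyme of haem synthesis, at 2.57-fold (1.36, limma adjusted p = 1.29e-12), and SLC48A1, a haem transporter, at 2.45-fold (1.29, limma adjusted p = 2.63e-07). SLC48A1 averaged 567 in both altered media and 235 in complete medium, and without cysteine it rose by 1.29 (limma adjusted p = 1.73e-04), while BLVRA and HMOX2 fell. Named after their values were seen, the biliverdin reductases BLVRA and BLVRB fell in excess to 0.766 and 0.749 of complete medium. Of the genes named from these lists, FTH1 (63.2%), PRDX1 (29.8%), TRIM16 (28.7%) and NFE2L3 (28.05%, all with HNRNPA2B1) share the most exon bases with other genes, and their values may hold reads of those. FECH and BLVRB stand in both this list and that of the targets, and HMOX2 in both this list and that of the paralogs.

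The genes outside these lists whose log2 values were most like those of a member over the 10 libraries were taken from 14473 genes with a symbol and a mean of at least 100. ATF3, a stress-induced transcription factor, was the closest to both OSGIN1 (r = 0.998) and ME1 (r = 0.999). For MAFG these were TNFRSF10B (r = 0.998), SSR2 and CDKN1A (both r = 0.996), and for BACH1 USP47 (r = 0.999), BRD1 and TLCD4. HMOX1 was closest to MAN2A2 (r = 0.998), INPP1 and LAMP3, and NQO1 to USP11 (r = 0.995), CCDC157 and TSPYL2. SRXN1 was closest to SMCR8 (r = 0.996), FAM83G and TNFRSF10D, and NFE2L1 to MR1 (r = 0.9925), NBPF1 and CD70. Among the 3 closest to KEAP1 were RPLP2 (r = 0.986), a gene of a ribosomal protein, and TLNRD1, and NFE2L2 was closest to MDH1 (r = 0.982). These correlations are descriptions over libraries in 3 groups, in which any gene with like group means is close.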

How the data were processed

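The authors deposited 1 table of signal values, the reads per Ensembl gene divided by each library's DESeq2 size factor. The notes of the submitters name STAR 2.7.10b, GRCh38 and HTSeq, and the methods name featureCounts with reads over several genes left out; the strand setting is not given in the sources used here. All values (100%) were whole multiples of 1 step within 0.01, from which reads were recovered. Of 78894 IDs, 61463 were in GENCODE 44. Genes at 10 or more in at least 3 libraries were kept, and log2(value + 1) of the groups compared was fitted with limma 3.58.1 (R 4.3.3), trended, two-sided. edgeR 4.0.16 on recovered reads called 4941, 13525 and 13834 genes (cysteine-free against complete, excess against complete, cysteine-free against excess) and DESeq2 1.42.0 called 5435, 13816 and 13126. Replicates differed beyond sampling noise (chi-square per degree of freedom 3.53 to 14.7). Steps were tested on simulated data. The members and lists were chosen with earlier results of these data known. Named besides the members were all paralogs, up to 4 listed genes per comparison called at 2-fold or more, and genes among the 3 most like each member; others are marked in the text as named after their values were seen. Alternatives were pseudocounts of 0.5 and 10, other filters, scalings and fits, and leaving out each library in turn. TRIM16L, under 2 IDs, was not tested. A few genes covered by these rules are not reported here.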

Additional observations from a re-analysis of the deposited data

How the results depend on the processing

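No member's difference changed sign under the alternative settings; the HNRNPA3 allowance for NFE2L2 was not among them. In excess against complete medium all 10 members were called under every alternative but a 2-fold minimum, which called 5 members and 2942 genes. In cysteine-free against complete medium 0 members and 738 genes were called without the filter, and 0 and 609 with a 2-fold minimum; an adjusted p of 0.05 gave 7987 genes and 6 members, OSGIN1 and ME1 among them. Leaving out each library gave 0 to 4 members and 978 to 6300 genes, with 1 member and 1198 genes without cysteine-free replicate 1, 0 and 978 without replicate 2, and 2968 and 2795 genes without complete replicates 1 and 2. There the lone cysteine-free library is assumed to vary like the complete ones. In cysteine-free against excess medium 8864 genes were called without the filter, and 3610 genes and 5 members with a 2-fold minimum. NFE2L1, NFE2L2 and KEAP1 each lost that call without the filter, NFE2L1 without cysteine-free replicate 1 and NFE2L2 without replicate 2. The cause was not tested. Equal totals moved the share of higher calls from 50.3% to 61.8% (excess against complete), from 49.2% to 40.0% (cysteine-free against excess) and from 46.4% to 52.3% (cysteine-free against complete; 55.1% over nuclear genes and 51.3% with edgeR), so that balance turned. Libraries share only a replicate number (correlations of deviations -0.0281 to 0.0392), and a replicate block called 6532, 13392 and 12393 genes in the 3 comparisons and 4, 10 and 10 members. Depth limits OSGIN1 most. Equal totals over nuclear genes was chosen after seeing the data.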
